A study of Homo sapiens with 4 samples.

Results

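The 10 genes described here encode parts of the TGF-beta pathway: the ligands TGFB1 and TGFB2, the receptors TGFBR1 and TGFBR2, and the SMAD proteins SMAD2, SMAD3, SMAD4, SMAD5, SMAD6 and SMAD7. They were taken by name out of the 15016 genes with at least 1 peak in an RNA immunoprecipitation (RIP-seq) of NSUN2, an enzyme that writes 5-methylcytosine (m5C) into RNA. All cells were wild-type PANC-1, an established line from a human pancreatic ductal adenocarcinoma. They were given 30 mM sodium lactate for 24 h, or ddH2O as the control. Each condition had 1 library made with the anti-NSUN2 antibody (the lactate IP and the ddH2O IP) and 1 input library set aside before the antibody was added, 4 libraries in all. With 1 library per group no difference between the conditions has a replicate check, no test was run, and every interval given here is a 95% exact binomial or Poisson interval that covers counting error only.

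In this pathway a ligand brings a pair of type II receptors (TGFBR2) together with a pair of type I receptors (TGFBR1), which then phosphorylate the receptor-regulated SMADs. SMAD2 and SMAD3 carry the TGF-beta signal and SMAD5 the signal of bone morphogenetic proteins, while SMAD4 joins either kind and goes with them into the nucleus. SMAD6 and SMAD7 are inhibitory and act against the receptors. In pancreatic ductal cancer the pathway is known for its part in growth arrest, in epithelial-mesenchymal transition and in the frequent loss of SMAD4.

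For each condition the peaks of the IP over its input were listed with the gene and region they fall in, 48104 peaks for lactate and 95785 for ddH2O, and both lists were merged into 116484 regions (merged peaks). For every merged peak the normalised read density of each IP in the 2 kb window around its centre was given, and the reads behind it were worked back from the densities. Summed over all windows there were 9756054 lactate reads and 9553835 ddH2O reads, but 80.1% and 63.0% of these lay in windows on 2 abundant transcripts, MT-RNR2 and MALAT1. These are sums over windows, and a read where windows overlap is counted in each. Outside both transcripts the sums were 1945000 and 3536821, 1.82-fold more in the ddH2O IP, and the median window held 5 and 7 reads. Because this makes the scale of the comparison uncertain, log2 ratios are given by the deposited densities and again with the reads scaled by these sums (library sums). Over all windows with 20 reads or more the median log2 ratio was -0.20 by the deposited densities and 0.13 by the library sums. The densities come from the IPs alone, so more of an RNA in the cells and more of it bound by the antibody cannot be told apart from them. The epithelial keratins KRT8, KRT18, KRT19 and KRT7 had peaks in both lists, whereas of the blood markers CD3E had none and PTPRC and HBB had at most 6 reads of either IP in a window.

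Peaks were found on all 10 genes in the ddH2O list and on 9 in the lactate list, which had none on SMAD6. The share of all genes with a peak in each list was not counted, so this absence cannot be set against the series. The lactate list held 41 peaks on these genes and the ddH2O list 100, a ratio of 0.41 beside 0.502 over all peaks and 0.521 over protein-coding genes. SMAD3 held 21 of the 41 lactate peaks and 27 of the 100 ddH2O peaks. Without SMAD3 there were 20 and 73 peaks, a ratio of 0.274. SMAD2 had 6 peaks with lactate and 20 with ddH2O. TGFB1 had 1 and 11, TGFB2 4 and 12, TGFBR2 4 and 10, SMAD5 1 and 6. SMAD6 had 7 ddH2O peaks, and SMAD4, SMAD7 and TGFBR1 had at most 3 peaks in either list. Fold over input at the members' peaks had a median of 4.28 for lactate and 3.03 for ddH2O, beside 3.24 and 3.03 over all peaks, and 26 of the 41 (63.4%) and 46 of the 100 (46%) had a q-value below 0.05, beside 42.7% and 48.6% over all peaks. Among peaks with such a q-value the lactate count was larger relative to ddH2O on the members than over all peaks (20549 and 46524). The reads outside MT-RNR2 and MALAT1 differ in the same direction as the number of peaks, while those over all windows do not, and the part of depth in these counts was not tested.

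**Figure D1:**
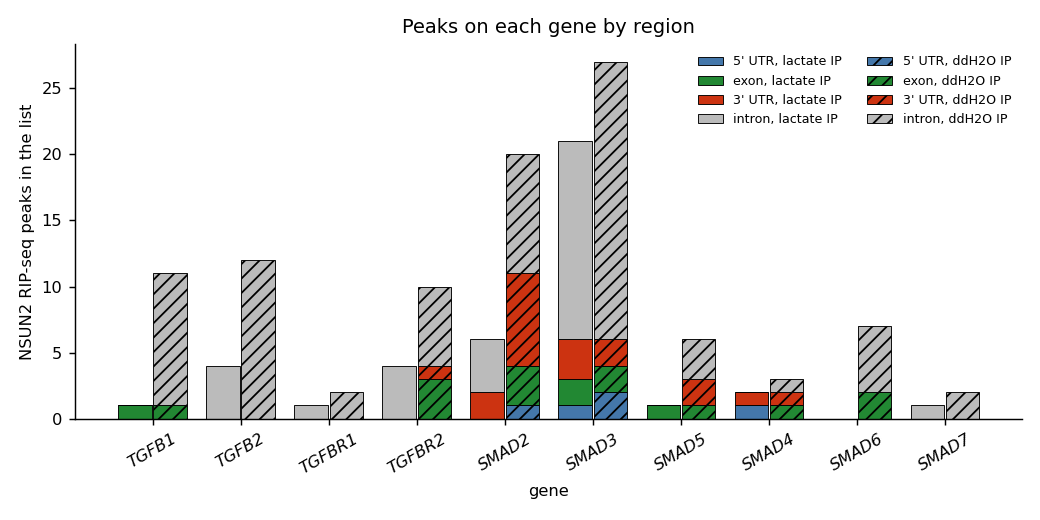
Peaks on each of the 10 genes (x axis) counted by region (colour) in the lactate list (plain bars) and the ddH2O list (hatched bars), 1 IP and 1 input library each. SMAD3 had the most peaks in both lists (21 and 27), and SMAD6 had 7 peaks in the ddH2O list and none in the lactate list.

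Most of these peaks lay in introns, 29 of 41 with lactate (70.7%, 95% interval 54.5 to 83.9) and 71 of 100 in the ddH2O list (71%, 61.1 to 79.6). Over protein-coding genes 61.5% and 61.2% of the peaks were intronic. The 3' UTRs held 6 peaks (14.6%, 5.57 to 29.2) and 13 peaks (13%, 7.11 to 21.2), against 18.1% and 15.8% over protein-coding genes. All 4 intervals contained the share over protein-coding genes, so a difference in region was not detectable with this many peaks. Reads were placed differently from peaks. Among 83 windows on the members that do not overlap each other, the 10 in 3' UTRs held 51.5% of the lactate reads (813 of 1580) and 61.4% of the ddH2O reads (1407 of 2291), while the 57 intronic windows held 36.6% and 30.5%. A window takes the region of its peak, though its 2 kb can reach beyond it. Over the series, overlapping windows included, 3' UTR windows held 708197 and 1332150 reads and intronic windows 509819 and 705964, the same order. SMAD3 alone supplied 70.2% and 65.2% of the members' reads, and 620 and 1027 of those in 3' UTRs. Without SMAD3 the lactate reads were slightly more in introns than in 3' UTRs, while the ddH2O reads kept the order.

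**Figure D2:**
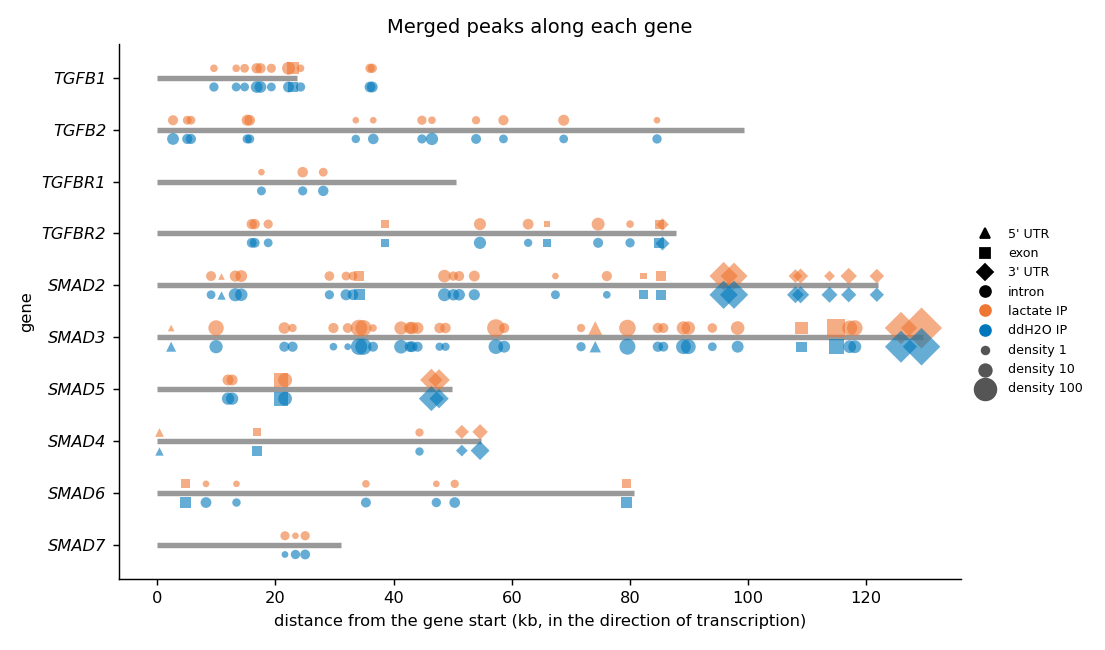
Merged peaks along each gene, in kb from its RefSeq start in the direction of transcription (grey bar, the gene). Symbols give the region, their area rises with the square root of the normalised density of the window (reads per kb), and the lactate IP is drawn above the ddH2O IP. The peaks at the densest windows of SMAD2, SMAD3, SMAD5 and SMAD4 were annotated to the 3' UTR, and those of both ligands and both receptors were not.

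Of the lactate peaks, 28 of 41 shared 1 base or more with a ddH2O peak (68.3%, 51.9 to 81.9). Of the ddH2O peaks, 26 of 100 overlapped a lactate peak (26%, 17.7 to 35.7). Over all peaks the shares were 56.4% and 27.8%. Merging gave 114 merged peaks on the members, of which 27 overlapped peaks of both lists, 13 of the lactate list alone and 74 of the ddH2O list alone (23.7%, 11.4% and 64.9%). Of all merged peaks 22.6% were in both lists and 59.4% in the ddH2O list alone, with the rest in the lactate list alone. The 27 in both lists had a median of 41 reads in the IPs together, the 74 for ddH2O 11 and the 13 for lactate 9. Their median log2 ratios of lactate over ddH2O were 0.52, -0.95 and 1.25, and the direction at a window listed for 1 condition was set in part by that choice. A total of 44 merged peaks had 20 reads or more, the least at which a difference of 2-fold was counted, and 40 had fewer than 10. The windows of 63 merged peaks overlapped that of another on the same gene, and 20 had the same reads as an overlapping neighbour, so merged peaks close together are not separate measurements.

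TGFB1, the founding ligand of the family, lies on chr19:41330323-41353922, minus strand (GRCh38). Its densest window was on the exonic peak chr19:41330767-41331125, the only peak on the gene in both lists, with a fold over input of 6.77 for lactate and 5.46 for ddH2O. The window held 20 lactate reads and 11 ddH2O reads, at normalised densities of 11.6 and 5.41 reads per kb. Lactate was thus 1.11 higher on the log2 scale (counting interval 0.032 to 2.37), and 1.67 higher by the library sums (0.59 to 2.93). The remaining 10 merged peaks came from the ddH2O list and were intronic, with at most 22 reads apart from the neighbour at chr19:41331606-41331805 that shares the 31 reads. Read over all 5 windows that do not overlap, TGFB1 had 35 lactate reads and 43 ddH2O reads, and the log2 ratio was -0.079 by the summed densities and 0.57 by the library sums, with the lower value resting on 1 window outside the RefSeq gene, on chr19:41317430-41317629, that reaches CCDC97 and held 4 and 10 reads. Without it the 4 windows within the gene held 31 and 33 reads, and the log2 ratio was 0.12, or 0.78 by the library sums. Of the intronic peaks, 3 lay past the RefSeq end of TGFB1, on a longer annotated transcript, and 2 of these had windows that reach the neighbouring gene CCDC97. The library kit did not mark strand, so reads of the neighbour cannot be told apart there.

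TGFB2, a second ligand, lies on chr1:218345336-218444619. Its 4 lactate peaks and 12 ddH2O peaks were all in introns, and its 13 merged peaks held 2 to 22 reads. The densest, chr1:218347844-218348270, had 6 lactate reads and 16 ddH2O reads and densities of 3.76 and 7.91, a log2 ratio of -1.07 (-2.85 to 0.22) that was -0.42 by the library sums. The peak with the highest fold over input (7.28), chr1:218391494-218392162, was listed for ddH2O and had 1 lactate read against 18 ddH2O reads. Its log2 ratio was -3.18 (-9.48 to -1.44), or -2.39 (-8.69 to -0.64) by the library sums, and its 19 reads left it under the minimum for counting a difference. The merged peak chr1:218413856-218414331, in both lists, went the other way with 10 and 3 reads and a log2 ratio of 1.55 (-0.13 to 4.32), or 2.32 by the library sums. TGFB2 windows thus pointed in both directions on few reads, and over all separate windows the log2 ratio was -0.66 by the deposited densities and 0.015 by the library sums.

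The receptors were thinly covered. TGFBR1, the type I receptor kinase (chr9:99103647-99154192), had 3 merged peaks, all intronic, with 3 to 12 reads. The 1 lactate peak, chr9:99128116-99128411, held 8 lactate reads and 4 ddH2O reads at densities of 4.64 and 2.42, a log2 ratio of 0.94 (-0.81 to 3.27), or 1.71 (-0.038 to 4.04) by the library sums. Over its 3 windows TGFBR1 held 11 and 15 reads, a log2 ratio of -0.33 by the deposited densities and 0.45 by the library sums. At these depths no difference was detectable.

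TGFBR2, the type II receptor that binds the ligand (chr3:30606356-30694142), had 11 merged peaks, and its 4 lactate peaks were intronic. The densest, chr3:30660725-30661210, was in both lists with a fold over input of 4.79 for lactate and 9.71 for ddH2O. It held 14 and 19 reads at densities of 8.38 and 8.95, a log2 ratio of -0.094 (-1.23 to 0.95), or 0.45 by the library sums. At chr3:30680661-30681173 there were 20 lactate reads and 7 ddH2O reads, at densities of 11.5 and 3.67. Here lactate was higher by 1.64 on the log2 scale (0.47 to 3.25) and by 2.26 with library sums, and fold over input was 5.60 and 3.85. The counting intervals of the 2 windows overlapped, and the difference between them was not tested. Over all separate windows TGFBR2 held 59 and 51 reads, with a log2 ratio of 0.32 by the deposited densities and 1.07 by the library sums. The 3' UTR peak of TGFBR2, in the ddH2O list, had 3 and 6 reads.

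SMAD3, which carries the TGF-beta signal to DNA, lies on chr15:67065602-67195169 and held 32 merged peaks, more than 96.1% of the 12397 protein-coding genes with any. Per length it had 2.47 merged peaks in 10 kb, above 80.5% of genes, where the median was 1.30. By this measure TGFB1 came before SMAD3, with 4.66 and above 95.1% of genes, though 3 of the TGFB1 merged peaks lay outside its span. The densest window of SMAD3 was at the end of the 3' UTR, on the peak chr15:67194822-67195089, with 442 lactate reads and 689 ddH2O reads. The normalised densities were 332 and 230 reads per kb, so lactate was 0.52 higher on the log2 scale (0.35 to 0.70), and 0.22 higher by the library sums (0.047 to 0.40). Scaled by the median ratio of all windows it was 0.098 higher (-0.079 to 0.27). Fold over input at this peak was 1.79 for lactate and 1.502 for ddH2O, the lowest of the members in each. The other 3' UTR window, on chr15:67191169-67191947, held 178 and 338 reads at densities of 125 and 121, with a log2 ratio of 0.046 (-0.23 to 0.31), or -0.059 by the library sums, and the ddH2O peak had a fold over input of 3.34, while 2 lactate peaks within it had 2.25 and 4.37. Most SMAD3 reads thus came from the 3' UTR, where lactate and ddH2O differed by less than 2-fold.

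The highest fold over input of any member in the lactate list was on an exon of SMAD3, at chr15:67179805-67181052, with 19.7 for lactate and 17.6 for ddH2O. This window held 70 lactate reads and 55 ddH2O reads at densities of 44.2 and 22.5, a log2 ratio of 0.98 (0.45 to 1.52) just under 2-fold, which was 1.21 (0.68 to 1.75) and past 2-fold by the library sums. Of the 20 SMAD3 merged peaks with 20 reads or more, 15 were higher with lactate by the deposited densities and 16 by the library sums, beside 40.2% and 57.0% of all such merged peaks. By more than 2-fold 6 were higher and 1 lower, beside 7.65% and 18.6% over the series, or 11 and 0 by the library sums, beside 17.0% and 8.77%. In introns, where most SMAD3 peaks lay, the series had 13.0% higher and 17.4% lower, or 27.3% and 7.79% by the library sums. Of the 6 higher windows the intronic peak chr15:67122482-67123475 rested on the most reads, 67 and 47, at densities of 42.0 and 19.4. Its log2 ratio was 1.11 (0.56 to 1.69), or 1.37 by the library sums, with a fold over input of 11.0 for lactate and 12.1 for ddH2O. A 5' UTR peak of another annotated transcript, within the gene, chr15:67139305-67140076, had 27 and 14 reads and a log2 ratio of 1.26 (0.33 to 2.35), or 1.76 by the library sums. The exonic peak chr15:67174496-67174876 had 18 and 8 reads and a log2 ratio of 1.33 (0.15 to 2.83), or 1.94 by the library sums. The 2 intronic merged peaks at chr15:67182657-67182956 and chr15:67183456-67183876 share reads and had ratios of 1.02 and 1.12, the first with 36 and 24 reads and the second with 41 and 26, and both stayed past 2-fold by the library sums. The intronic peak chr15:67109570-67109769 was at the threshold, with 13 and 7 reads and a log2 ratio of 1.01 (-0.34 to 2.66), or 1.67 by the library sums. The 1 lower SMAD3 window, on the intronic peak chr15:67124122-67124527, held 6 and 16 reads, a log2 ratio of -1.07 (-2.85 to 0.22). By the library sums it was -0.42 and within 2-fold.

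At more than 1 intronic SMAD3 peak fold over input and IP density pointed in different directions. The peak chr15:67144847-67145507 had a fold over input of 6.16 for lactate and 20.1 for ddH2O, the highest of the members in that list. Its window held 52 lactate reads and 69 ddH2O reads, at densities of 32.9 and 28.2, and the log2 ratio was 0.23 (-0.33 to 0.76), or 0.46 by the library sums. This window also covers part of SMAD3-AS1, an antisense RNA whose reads cannot be told apart without strand. The intronic peak chr15:67163383-67164256 had a fold over input of 3.19 for lactate and 4.95 for ddH2O. It held 24 and 17 reads, and the log2 ratio was 0.84 (-0.089 to 1.86), or 1.34 by the library sums. At chr15:67155201-67155863, also intronic, both were lower with lactate, with a fold over input of 6.38 and 16.4, 22 and 47 reads, and a log2 ratio of -0.58 (-1.42 to 0.14), or -0.20 by the library sums.

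SMAD2, the close relative of SMAD3 in the same branch, lies on chr18:47808957-47930872, minus strand, with 23 merged peaks. In the ddH2O list 7 of its 20 peaks were in the 3' UTR, against 2 of 6 in the lactate list. The densest window was on the 3' UTR peak chr18:47834766-47835353, with a fold over input of 8.09 for lactate and 6.91 for ddH2O. It held 107 lactate reads and 194 ddH2O reads, at densities of 72.2 and 72.9, and the log2 ratio was -0.014 (-0.37 to 0.33), or 0.010 by the library sums. No difference was seen at this window by either scale, and the interval leaves out a change of 2-fold in both directions. The next merged peak in the 3' UTR, chr18:47833148-47833347, shares part of that window and had 88 and 188 reads and a log2 ratio of -0.28 (-0.67 to 0.089), or -0.22 by the library sums. The only SMAD2 window with 20 reads or more that was past 2-fold by the deposited densities was on the 3' UTR peak chr18:47822736-47822983, with 5 and 16 reads and a log2 ratio of -1.31 (-3.29 to 0.026). By the library sums this ratio was -0.64 and within 2-fold, and another 3' UTR window, on chr18:47813623-47814114 with 12 and 10 reads, was past 2-fold higher at 1.10 (-0.21 to 2.50), where the deposited densities gave 0.47. Of the 13 SMAD2 windows under the read minimum, with 2 to 17 reads, 8 were lower and 1 higher by more than 2-fold, or 3 and 3 by the library sums. Over all such windows of the series 48.2% were lower and 16.9% higher, or 26.2% and 28.2%, and 11 of the 13 were listed for ddH2O only. Among them the 3' UTR peak chr18:47816791-47817385 had 1 lactate read and 12 ddH2O reads and a log2 ratio of -2.68 (-8.98 to -0.80), or -1.84 by the library sums, and an intronic peak at chr18:47854607-47854955 had 7 and 1 reads and a ratio of 1.96 (-0.19 to 8.27), or 2.86. Of the 10 SMAD2 merged peaks with 20 reads or more, 1 was higher with lactate by the deposited densities and 5 by the library sums, beside the same 40.2% and 57.0% of the series. A further intronic peak, at chr18:47882049-47882573, was credited to SMAD2 in the lactate list and to a gene without a symbol in the ddH2O list.

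SMAD5, which serves bone morphogenetic protein signalling (chr5:136132845-136182733), had 6 merged peaks, all with 28 reads or more. Its densest window, on the 3' UTR peak chr5:136179077-136179397, held 43 lactate reads and 108 ddH2O reads at densities of 27.6 and 43.4. The log2 ratio was -0.65 (-1.22 to -0.15), or -0.45 (-1.01 to 0.056) by the library sums, and the peak was listed for ddH2O only, with a fold over input of 6.08. The overlapping window of the 3' UTR peak chr5:136180444-136180643 had 38 and 34 reads and a log2 ratio of 0.66 (-0.040 to 1.38), or 1.02 (0.32 to 1.73) and past 2-fold by the library sums. The 2 windows on this UTR thus had ratios of opposite sign by both scales. The exonic peak chr5:136153454-136154030 was in both lists, with a fold over input of 8.73 and 6.09, 26 and 34 reads, and a log2 ratio of 0.086 (-0.72 to 0.85), or 0.49 by the library sums.

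SMAD4, the partner shared by all branches, lies on chr18:51030213-51085042 and had 2 lactate peaks and 3 ddH2O peaks, none of which overlapped between the lists. The 3' UTR peak chr18:51084684-51085026, listed for ddH2O with a fold over input of 2.87, was the only one with 20 reads or more. It held 9 lactate reads and 29 ddH2O reads at densities of 5.59 and 13.4, a log2 ratio of -1.26 (-2.63 to -0.25). The window was chosen by a peak of the ddH2O IP alone, so its direction is a description of that list. By the library sums the ratio was -0.72 (-2.09 to 0.29) and no longer past 2-fold. Over all SMAD4 windows the log2 ratio was -0.50 by the deposited densities and 0.13 by the library sums. A second 3' UTR peak, chr18:51081668-51081867, was in the lactate list and had 6 and 2 reads. The 5' UTR peak chr18:51030426-51030625, also in the lactate list, had 3 and 2 reads.

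The inhibitory SMADs were also thinly covered, with no window of 20 reads. All 7 peaks of SMAD6 (chr15:66702236-66782849) were in the ddH2O list, 5 in introns and 2 in exons, and all 7 windows had more ddH2O reads than lactate reads. In sum they held 9 lactate reads and 49 ddH2O reads, a log2 ratio of the summed densities of -1.81, or -1.46 by the library sums. The densest, on the exonic peak chr15:66781504-66781960, had 3 and 11 reads at densities of 2.07 and 5.80. The 7 windows were chosen by peaks of the ddH2O IP, so this direction is a description of that list. SMAD7 (chr18:48919853-48950965, minus strand) had 3 intronic merged peaks of 4 to 10 reads. Its lactate peak, chr18:48929251-48929450, held 4 and 0 reads, and its densest window, on the ddH2O peak chr18:48925795-48926068, held 4 and 6 reads at densities of 2.55 and 3.43. The log2 ratio there was -0.43 (-2.79 to 1.55) by the deposited densities and 0.38 by the library sums, while over its separate windows it was 0.31 and 1.23, so its direction was not settled.

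Over the 44 merged peaks with 20 reads or more, 9 (20.5%) were higher with lactate by more than 2-fold and 4 (9.09%) lower. Over all 37925 such merged peaks of the series 7.65% were higher and 18.6% lower. Scaled by the library sums, 16 of the 44 were higher and none lower, where the series had 17.0% higher and 8.77% lower. By either scale the share of higher windows was above that of the series and the share of lower windows below it. SMAD3 supplied 6 of the 9 and 11 of the 16 higher ones. With no read minimum, 21 and 37 of the 114 were higher and lower by the deposited densities (18.4% and 32.5%), beside 13.9% and 38.6% over the series. Without SMAD3, 3 of 24 were higher and 3 lower by the deposited densities, and 2 of the 3 higher ones were the TGFB1 windows that hold the same reads. Counted once where windows overlap, 7 of 30 were higher and 2 lower by the deposited densities. The counting interval of the ratio lay above 0 for 11 of the 44 and below 0 for 2, where 11.7% and 24.0% of the series did so. By the library sums it lay above 0 for 16 and below 0 for none, beside 20.4% and 13.7%. Without SMAD3 the interval lay above 0 for 3 of 24, 2 of them these TGFB1 windows, and below 0 for 2 by the deposited densities. With library sums it lay above 0 for 4 of 24 (16.7%), these TGFB1 windows included, and below 0 for none, beside the same 20.4% and 13.7%. The median log2 ratio was 0.016 over the 44 and -0.20 over the series, or 0.31 and 0.13 by the library sums. Without SMAD3 it was -0.30 over the 24, or -0.064, and so below that of the series by both scales. By region, 6 of 29 intronic windows, 2 of 4 exonic windows and the 1 5' UTR window were higher by more than 2-fold, beside 13.0%, 2.96% and 4.66% over the series. None of the 10 in 3' UTRs was, beside 2.29%. An exonic and an intronic window of TGFB1 hold the same reads and were counted in both regions. Counted once where windows overlap, 4 of 18 intronic windows and 2 of 4 exonic windows were higher, or 6 and 3 by the library sums. Lower by more than 2-fold were 2 of the 10 in 3' UTRs and 2 of the 29 in introns, beside 15.5% and 17.4%, and none in exons or the 5' UTR, beside 22.6% and 30.0%. On the library-sum scale 10 intronic, 3 exonic, 2 3' UTR windows and the 5' UTR window were higher and none was lower, beside 27.3%, 8.17%, 6.61% and 10.7% higher and 7.79%, 11.5%, 7.03% and 14.8% lower over the series.

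**Figure D3:**
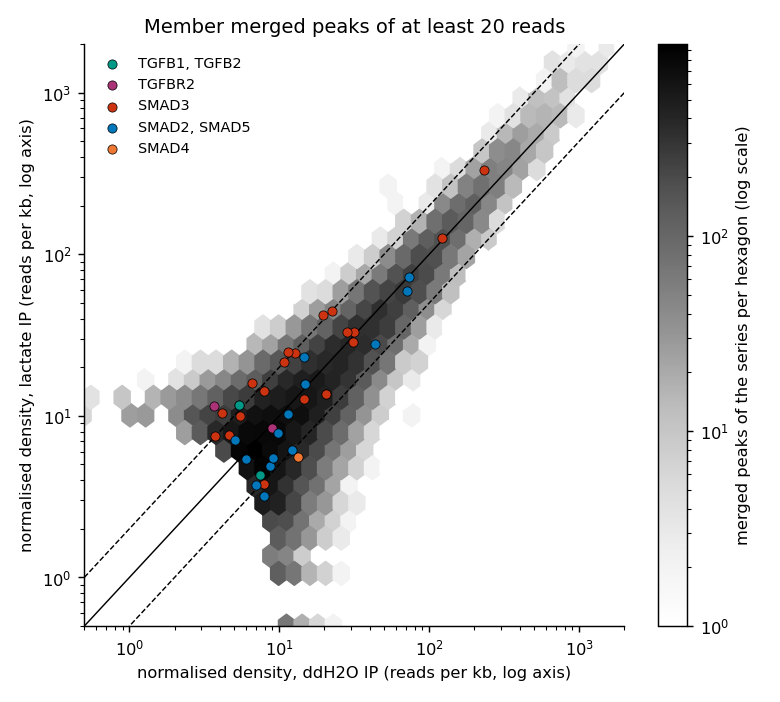
Normalised density in the ddH2O IP (x axis) and the lactate IP (y axis), in reads per kb on log axes, for merged peaks with 20 reads or more. Grey hexagons count the merged peaks of the series within the axes, coloured points are the 44 on the members, and lines mark equal density and 2-fold. Above the upper 2-fold line lie 6 of the 20 SMAD3 points and none of the SMAD2 and SMAD5 points.

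**Figure D4:**
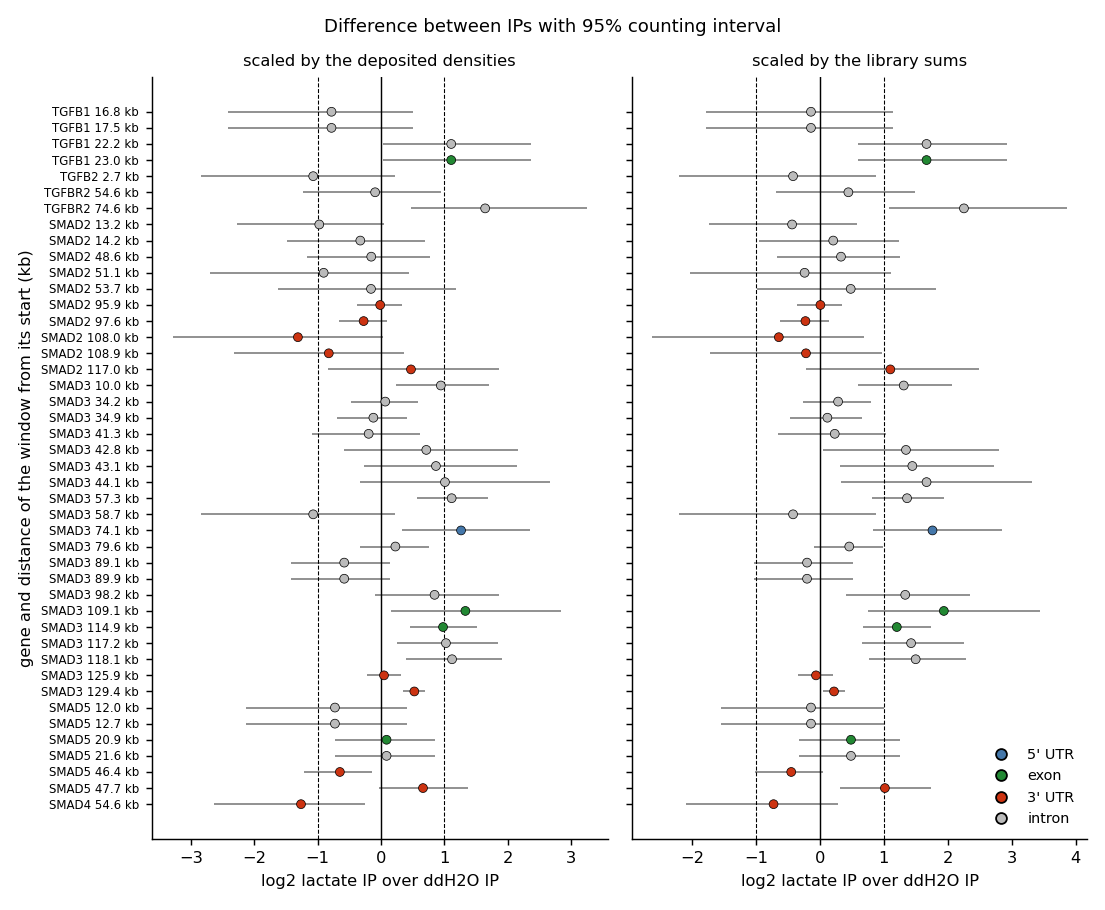
Log2 ratio of the lactate IP over the ddH2O IP at the 44 merged peaks, named by gene and distance from its start, scaled by the deposited densities (left) and by the library sums (right). Bars are 95% intervals of counting error, dashed lines mark 2-fold, and colours give the region. The SMAD3 points between 98.2 and 118 kb sit above 0 in both panels, and the SMAD2 window at 95.9 kb sits at 0 in both.

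Ordered by the mean density of their densest window, the members ran from SMAD3 (281 reads per kb) through SMAD2 (72.6), SMAD5 (35.5), SMAD4 (9.50), TGFBR2 (8.66), TGFB1 (8.53), TGFB2 (5.83), SMAD6 (3.93) and TGFBR1 (3.53) to SMAD7 (2.99). The first 3 steps were larger than counting error. From SMAD4 downward each gene's interval overlapped that of the next. The median over protein-coding genes was 14.5, so SMAD3, SMAD2 and SMAD5 lay above it and the ligands, the receptors, SMAD4 and the inhibitory SMADs below it. SMAD3 exceeded 97.2% of protein-coding genes and SMAD7 18.1%.

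A list of 70 other genes of the pathway was read the same way, and 57 of them had a merged peak, with no share over all genes counted beside it. Of their 206 merged peaks with 20 reads or more, 24 (11.7%) were higher with lactate by more than 2-fold and 29 (14.1%) lower, beside 7.65% and 18.6% over the series. With library sums these were 43 (20.9%) and 16 (7.77%), beside 17.0% and 8.77%. The median log2 ratio was -0.15, or 0.20 with library sums. The densest window of these genes belonged to PMEPA1, a TGF-beta target that holds back receptor-regulated SMADs. It reached densities of 1199 with lactate and 759 with ddH2O on an exon (log2 ratio 0.66, 0.57 to 0.75), but the ratio was 0.057 by the library sums. In the other roles the densest windows belonged to the ligand GDF15 (565 and 383), the activin-binding FSTL3 (41.5 and 43.0), the type II receptor BMPR2 (111 and 89.5), the SMAD adaptor ZFYVE16 (84.9 and 51.6), the SMAD4 ubiquitin ligase TRIM33 (75.2 and 94.9), the transcription factor SP1 (214 and 208) and the TAK1-binding TAB1 (13.7 and 26.8). Each of these 7 pairs differed by less than 2-fold.

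Of the 82 merged peaks of these genes with 50 reads or more, 4 were higher by more than 2-fold and 4 lower (4.88% each), beside 3.71% and 11.1% over the series. The 4 that were higher with lactate were intronic, as were 71.1% of the 591 such windows of the series that had a region in a gene. SMURF1 and SMURF2, ubiquitin ligases that mark SMADs and receptors for breakdown, held 3 of them. For SMURF2 51 lactate reads stood against 8 ddH2O reads on chr17:64646051-64647138, a log2 ratio of 2.91 (1.96 to 4.33). For SMURF1 the ratios were 1.06 (0.36 to 1.82) with 42 and 28 reads and 1.44 (0.70 to 2.28) with 44 and 22 reads. ZFYVE16 had the fourth, with 50 and 23 reads and a ratio of 1.58 (0.87 to 2.39). The 4 that were lower were in exons or 3' UTRs, and in the series 17.9% of the 1847 lower ones with a region in a gene were intronic. EP300, an acetyltransferase and SMAD coactivator, had 2 exonic ones, with 50 and 198 reads at a ratio of -1.21 (-1.71 to -0.78) and with 19 and 76 reads at -1.42 (-2.29 to -0.74). These 2 windows of EP300 overlap, so they are not separate measurements. CREBBP, the relative of EP300, had 48 and 189 reads in the 3' UTR at -1.22 (-1.73 to -0.77). NEDD4L, a ubiquitin ligase for activated SMAD2 and SMAD3, had 16 and 58 reads in the 3' UTR at -1.33 (-2.29 to -0.57). By the library sums the 4 higher windows had ratios of 1.43 to 3.39 and the 4 lower ones -1.10 to -0.93, with NEDD4L no longer past 2-fold.

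**Figure D5:**
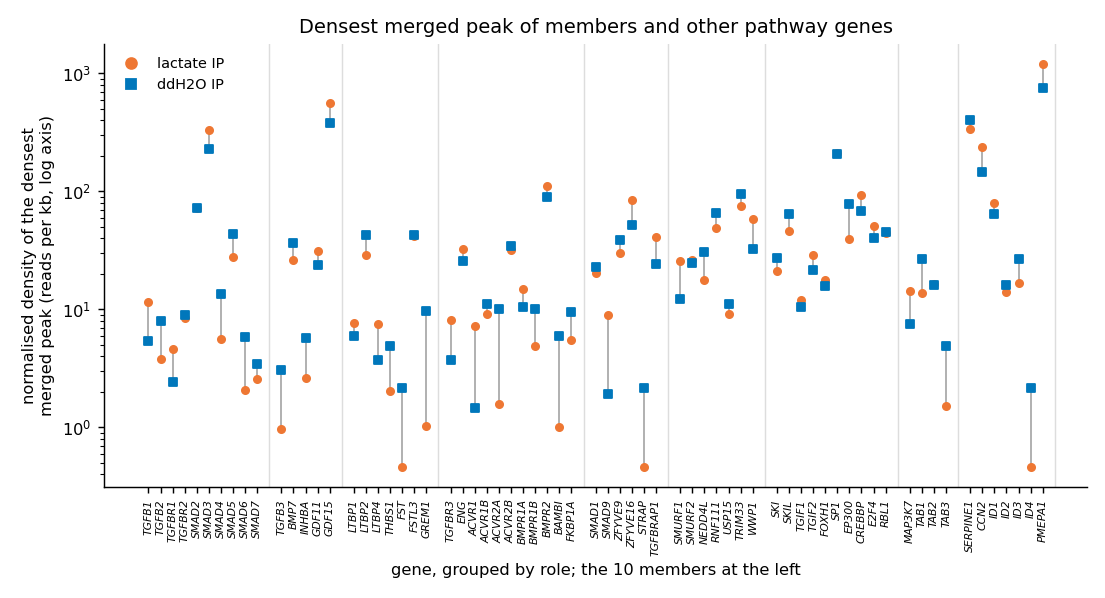
Normalised density (reads per kb, log axis) of the densest merged peak of each member (left block) and of the 57 other pathway genes with a merged peak, in blocks by role, in the lactate IP (circles) and the ddH2O IP (squares). SMAD3 is the densest member, and PMEPA1 among the targets at the right is the densest of the other genes.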

How the data were processed

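RIP-seq libraries of PANC-1 cells were sequenced as paired-end reads. According to the submitters' processing notes, fastp 0.20.1, HISAT2 2.1.0, MACS2 2.2.7.1, bedtools 2.29.2, HOMER 4.11.1 and DiffBind were used on GRCh38. The authors called peaks in each IP against its input, and deposited for each peak the fold enrichment (a ratio to input), the −log10 p-value and the q-value. The authors compared the IPs with MAnorm and deposited a normalised density signal per window, with their own fold changes and p-values, which were not used.

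Members were matched by gene symbol, and merged peaks were assigned by 1 base of overlap (bedtools 2.31.1). A density is the reads plus 1 over 2 kb, less a line fitted by the authors (recovered slope -0.169). Undoing it gave whole reads within 0.1 for 99.998% of windows. Read recovery was tested on simulated data. Python 3.11.15, numpy, scipy and pandas were used. The ratio of densities was counted past 2-fold with at least 20 reads. All 10 members are described. Of the 70 other genes, those named have the densest window in their role, or a window past 2-fold with at least 50 reads. The members and lists were chosen with earlier results of these data known. With 1 library per group there was no test. Gene spans are from RefSeq (GRCh38.p14). Alternatives were other scalings, read minimums, folds, peak filters and overlaps.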

Additional observations from a re-analysis of the deposited data

How the results depend on the processing

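The number of peaks on the members went from 41 (lactate) and 100 (ddH2O) to 26 and 46 at a q-value below 0.05 and to 24 and 31 at a fold over input of at least 4. The q-value filter left 20549 and 46524 of all peaks, and the fold filter 14920 and 26711 on protein-coding genes. By both filters the lactate count was larger relative to ddH2O on the members than in these, the reverse of the unfiltered lists. At a q-value below 0.05 the intron share in the ddH2O list was 56.5% and the 3' UTR share 26.1%, beside 50.2% and 21.9% over protein-coding genes with the same filter. The counts past 2-fold, 9 higher and 4 lower, of 44, became 16 and 0 by library sums, 14 and 0 by the median ratio (series 13.7% and 11.1%), 21 and 37 of 114 with no read minimum (18.4% and 32.5%, series 13.9% and 38.6%), 3 and 0 of 19 with at least 50 reads (series 3.71% and 11.1%), and 15 and 12 at 1.5-fold (series 16.2% and 32.5%). Counted in separate windows, an alternative chosen after seeing the data, 2 were lower. Without SMAD3, also chosen after seeing the data, 3 were higher, 2 of them TGFB1 windows with the same reads, and the median log2 ratio was -0.30 in place of 0.016. For TGFB1 the ratio turned from 1.11 at the densest window to -0.079 over separate windows by the deposited densities (0.12 without the window outside the gene, also chosen after seeing the data), and was 0.57 there by the library sums, a setting added after seeing the data, under which TGFB2 turned from -1.07 to 0.015 and SMAD4 from -1.26 to 0.13. Ratios under 2-fold changed sign over separate windows for TGFBR1 (0.94 to -0.33), TGFBR2 (-0.094 to 0.32, or 1.07 by the library sums) and SMAD7 (-0.43 to 0.31). At the densest window of SMAD3 the ratio was 0.52, 0.22 by the library sums and 0.098 by the median ratio. The region shares in the lactate list and the overlap of at least 50% (19 lactate and 18 ddH2O peaks) stayed within their intervals or within 1.5 times. The cause of these changes was not tested. No paired analysis was possible because there was a single IP library for lactate and for ddH2O. Most windows held too few reads to detect a 2-fold difference.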
